A study of Mus musculus with 16 samples.

Results

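A set of 10 genes that write or remove acetyl groups was followed across the T cell groups of a mouse array study: the acetyltransferases Ep300, Crebbp, Kat2a, Kat2b, Kat6a, Kat6b and Kat7, and the sirtuins Sirt1, Sirt2 and Sirt7. They were named as a set, and every probe set annotated to one of them alone was taken. Of these 10 genes, 8 had such a probe set, 14 in all among the 45141 probe sets of the array, which cover 17097 genes. Ep300 has no probe set in the annotation used here. Sirt2 is listed on a single probe set that it shares with Dvl3, so no value is given for it, and a further probe set that Sirt7 shares with Mafg was not used. The only probe set of Kat6b stayed below a log2 value of 5 on all 16 arrays, with group means from 2.56 to 2.69, and was too dim to be tested. The other 7 genes (Crebbp, Kat2a, Kat2b, Kat6a, Kat7, Sirt1 and Sirt7) were tested among 8139 genes above that level on at least 4 arrays.

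RNA came from T cells sorted out of the spleens of NOD/LtJ mice aged 6 weeks, an inbred strain that develops autoimmune diabetes, with no further treatment. One genotype, called WT here as in the labels, carries Tg(Foxp3-EGFP/cre)1aJbs, a transgene in which Foxp3 sequences drive a fusion of EGFP and the Cre recombinase beside the intact Foxp3 gene. The other, called KI, carries Foxp3tm2Ayr, the Foxp3gfp knock-in allele, in which GFP is fused to the Foxp3 protein itself. Both genotypes therefore mark Foxp3 cells with a green protein, and neither is a mouse without a reporter. Each genotype gave regulatory T cells (Tregs) and conventional CD4 T cells (Tconv), with 4 arrays in each of the 4 groups. The sort described in the labels kept CD3 and CD4 cells negative for GFP and is the same for Tregs and Tconv, so how Tregs were gated is unclear. The labels do not say that the arrays of a group are separate mice, so p-values measure only the spread between these samples, which may be technical.

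Acetylation of histone tails loosens chromatin and marks active enhancers and promoters. Ep300 and Crebbp are closely related coactivators that acetylate histones and many transcription factors. Kat2a (GCN5) and Kat2b (PCAF) are the catalytic subunits of the SAGA and ATAC complexes, and Kat6a (MOZ), Kat6b (MORF) and Kat7 (HBO1) are MYST family enzymes that work with BRPF, JADE and ING subunits. Sirtuins are deacylases that consume NAD, and so tie protein acetylation to metabolism. In Tregs the transcription factor Foxp3 is itself acetylated, by p300 among others, which protects it from degradation, and Sirt1 removes those acetyl groups. Sirt7 is a largely nucleolar sirtuin that acts on histone H3 and supports transcription of ribosomal genes.

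Sirt1 and Sirt7 were the members whose levels passed a test between groups. The bases that lie directly upstream of their annotated starts are shown because they are the closest regulatory sequence available for both. They are RefSeq sequences of build GRCm38.p6, read 5′ to 3′ on the minus strand, from chr10:63339036-63339285 for Sirt1 and chr11:120625015-120625116 for Sirt7. The Sirt7 window is shorter because it stops at the near edge of the next listed gene, Mafg, whichever way that gene is read. Capitals mark the E-box CACGTG, a motif of MYC and related factors, in Sirt1 and CCGGAAG, a motif of ETS factors, in Sirt7.
Sirt1: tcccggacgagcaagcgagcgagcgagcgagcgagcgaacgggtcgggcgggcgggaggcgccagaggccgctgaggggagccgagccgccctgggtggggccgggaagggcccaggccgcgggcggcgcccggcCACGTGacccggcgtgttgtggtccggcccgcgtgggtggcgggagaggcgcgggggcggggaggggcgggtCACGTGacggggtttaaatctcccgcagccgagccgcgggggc
Sirt7: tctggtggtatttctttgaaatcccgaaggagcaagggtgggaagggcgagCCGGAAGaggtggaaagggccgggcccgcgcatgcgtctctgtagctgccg

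Besides the E-box and the ETS motif, the GC box GGGCGG was searched on both strands, as were the forkhead motif TGTTTAC and the core of the cyclic AMP response element, TGACG. The 250 bases of Sirt1 hold 2 copies of the E-box, 115 and 43 bases before the start, and a match of any number is found in 6.02% of 32851 windows of that length. They also hold 6 GC boxes (present in 32.7% of windows) and 1 copy of TGACG (17.8%), which overlaps the E-box nearest the start by 2 bases. Their GC content is 79.2%, with 39 CpG pairs, against a median of 52.4% over all windows. The 102 bases of Sirt7 hold the ETS motif once, 51 bases before the start, a match found in 4.57% of windows of 102 bases. Their GC content is 61.8%, against a median of 54.9%. No forkhead match lies in either window, and these letters occur in 3.17% of windows of 250 bases and 1.14% of windows of 102 bases. The matches describe the sequence alone, and no binding was measured.

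The labels were checked with Foxp3, which averaged 9.86 ± 0.20 (SD, n = 4) in WT Tregs and 9.76 ± 0.29 in KI Tregs, against 4.63 ± 0.32 in WT Tconv and 3.69 ± 0.09 in KI Tconv. Foxp3 and Il2ra were below 5 on all Tconv arrays, and the mean of 5 T cell markers was 10.15 to 10.47 over the arrays. The Tconv groups were not alike in Treg transcripts. Foxp3 was lower in KI than in WT Tconv (-0.933, adjusted p = 0.0104 in limma), where 0.135% of all genes passed. Summed linear levels of 5 Treg markers were 1268 to 1408 in WT Tconv and 1017 to 1114 in KI Tconv. The part of this gap in the comparisons below was not tested. Array medians lay between 3.69 and 3.76. Transcripts of other blood cells varied between arrays: summed linear levels ran from 67.4 to 3723 for neutrophil markers, from 312 to 5896 for erythroid markers, from 110.5 to 684.5 for B cell markers and from 75.9 to 1037 for monocyte markers, with group ranges that overlapped. Cd79a, Pax5 and Csf1r stayed below 5 on all arrays, as did all 4 dendritic cell and all 4 platelet markers that were tested. Summed levels of NK cell and plasma cell markers separated Tregs from Tconv in both genotypes. Those of CD8 T cell markers did so in WT and overlapped in KI. The values of these 3 lists are given with the comparison of Tregs and Tconv.

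Sirt7 fell in Tregs of both genotypes. Its WT Tconv arrays read 10.04, 10.19, 10.20 and 10.06, and its WT Treg arrays 9.78, 9.92, 9.85 and 9.99 (log2 level). All 4 WT Treg arrays lay below all 4 WT Tconv arrays. The difference was -0.24 (SE 0.0639, 95% interval -0.372 to -0.103), a 1.179-fold lower level, with an adjusted p of 0.00728 in limma. Its KI Tconv arrays read 10.17, 10.13, 10.11 and 10.06, and its KI Treg arrays 9.88, 10.09, 9.88 and 9.91. Here 1 Treg array, KI Treg 2 at 10.09, reached into the Tconv range, while the other 3 lay below it. The difference was -0.17 (SE 0.0639, 95% interval -0.309 to -0.04, adjusted p = 0.0366), a 1.128-fold lower level. In bulk samples fewer cells that express a gene and less of its RNA per cell cannot be told apart. The group means in order were 10.12 ± 0.09 (WT Tconv), 10.11 ± 0.05 (KI Tconv), 9.94 ± 0.10 (KI Treg) and 9.88 ± 0.09 (WT Treg, SD, n = 4), and neighbours of the same cell type differed by less than their spread. The WT call held with each array left out in turn (adjusted p from 0.00366 to 0.0304). The KI call was lost without KI Tconv 1 (-0.16), KI Tconv 2 (-0.17), KI Tconv 3 (-0.18), KI Treg 1 (-0.15), KI Treg 3 (-0.15) or KI Treg 4 (-0.16), at adjusted p from 0.0659 to 0.101.

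Sirt1 fell in KI Tregs, and in WT Tregs its difference had the same sign without passing. The WT Tconv arrays read 9.44, 9.65, 9.68 and 9.56, and the WT Treg arrays 9.31, 9.25, 9.31 and 9.64. Of the WT Treg arrays 3 lay below every Tconv array, and WT Treg 4, at 9.64, lay among them. The difference was -0.21 (SE 0.0961, 95% interval -0.409 to -0.004, adjusted p = 0.107 in limma). The KI Tconv arrays read 9.66, 9.41, 9.45 and 9.70, and the KI Treg arrays 9.32, 9.21, 9.19 and 9.51. Again 3 Treg arrays lay below every Tconv array, and KI Treg 4, at 9.51, lay above KI Tconv 2 and 3. The difference was -0.25 (SE 0.0961, 95% interval -0.45 to -0.046, adjusted p = 0.0473), a 1.188-fold lower level. The group means in order were 9.58 ± 0.11 (WT Tconv), 9.55 ± 0.14 (KI Tconv), 9.38 ± 0.18 (WT Treg) and 9.31 ± 0.15 (KI Treg), and neighbours of the same cell type again differed by less than their spread.

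Single arrays changed the Sirt1 calls. Without WT Treg 4 the WT difference was -0.29 and passed (adjusted p = 0.0198). The KI call was lost in 10 of 16 fits with an array left out: without KI Tconv 1 (-0.21), KI Tconv 4 (-0.20), KI Treg 1 (-0.25), KI Treg 2 (-0.22) or KI Treg 3 (-0.21), and, at an unchanged difference of -0.25, without WT Tconv 2, 3 or 4 or WT Treg 1 or 3, at adjusted p up to 0.128. WT Treg 4 and KI Treg 4 belong to the arrays that the labels number 24 to 27, of which each group has 1. On those the Treg minus Tconv difference of Sirt1 was 0.07 in WT and -0.18 in KI, while the WT arrays numbered 4 to 9 gave -0.30 and the KI arrays numbered 13 to 23 gave -0.27. For Sirt7 the same values were -0.07 and -0.15 on the arrays numbered 24 to 27, and -0.29 and -0.18 on the others. The labels do not say what the numbers stand for.

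**Figure D1:**
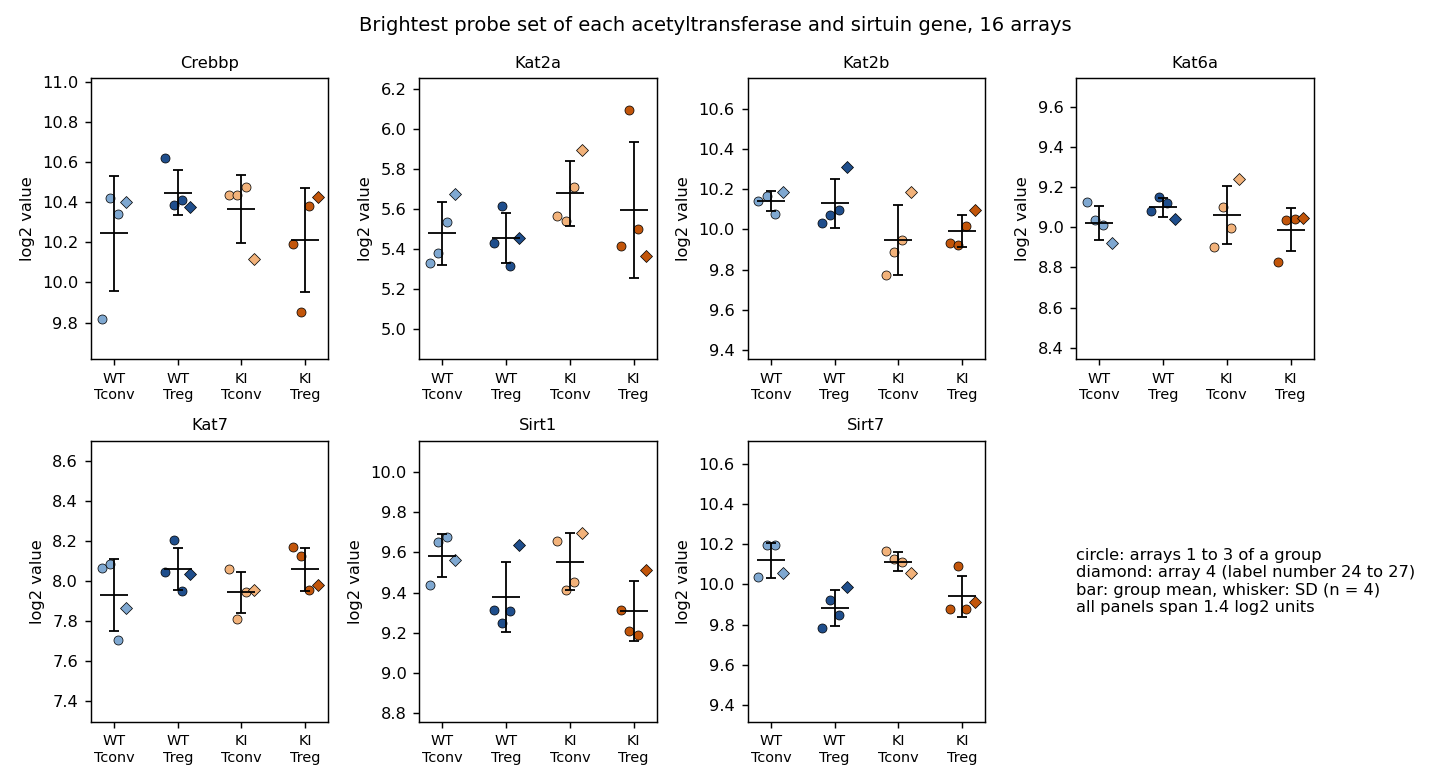
Log2 level (vertical axis, deposited values) of the 7 tested genes, 1 panel a gene, on each array of the 4 groups (horizontal axis); bars and whiskers are means and SD (n = 4), and diamonds mark the arrays numbered 24 to 27 in the labels. In the Sirt7 panel all 4 WT Treg points lie below the 4 WT Tconv points, and in the Sirt1 panel 3 of 4 Treg points lie below all Tconv points of their genotype.

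The counts of members that passed were read against the whole array. In WT, 1 of 7 members passed, 0 higher and 1 lower, where 34.6% of all genes tested passed in either direction, 16.7% higher and 17.9% lower. In KI, 2 of 7 passed, 0 higher and 2 lower, where 41.1% of all genes passed, 21.2% higher and 19.9% lower. The share of members that passed was near or below these backgrounds, so the counts are no result about the set. The median size of the Treg minus Tconv difference was 0.13 over the members and 0.18 over all genes in WT, and 0.11 against 0.20 in KI. The Treg and Tconv arrays of a genotype had no overlap for 1 member in WT, Sirt7, where 37.2% of all genes had none, and for 0 members in KI, against 34.7%. Among the marker lists, the summed linear level of Cd8a and Cd8b1 was 138.5 to 176.5 in WT Tregs against 73.4 to 92.6 in WT Tconv, and 115.5 to 154.0 against 94.0 to 121.7 in KI. The 6 NK cell markers summed to 121.8 to 212.7 in WT Tregs against 313.1 to 331.7 in WT Tconv, and to 141.4 to 215.1 against 260.3 to 376.0 in KI, with Ncr1, Klrb1c and Klrk1 below 5 on every array. The plasma cell list, of which Jchain and Xbp1 were measured, summed to 1549 to 2087 in WT Tregs against 1002 to 1390 in WT Tconv, and to 1449 to 2170 against 894 to 1386 in KI. The mean log2 level of the plasma cell list overlapped, at 6.453 to 9.853 in WT Tregs against 7.875 to 9.291 in WT Tconv. In KI it was 7.838 to 9.681 against 7.422 to 9.129. The part of these markers in the sirtuin differences was not tested.

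None of the 5 member acetyltransferases tested passed between Tregs and Tconv of either genotype. Crebbp, the CBP coactivator, gave differences of opposite sign in WT and KI. Its WT Tconv arrays read 9.82, 10.42, 10.34 and 10.40, its WT Treg arrays 10.62, 10.39, 10.41 and 10.38, its KI Tconv arrays 10.44, 10.44, 10.48 and 10.11, and its KI Treg arrays 10.19, 9.85, 10.38 and 10.43. In 3 of the 4 groups a single array stood apart from 3 that lay close together: WT Tconv 1 and KI Tconv 4 were low and WT Treg 1 was high. The KI Treg arrays were more spread, with KI Treg 2 lowest at 9.85. WT Tconv 1, KI Tconv 4 and KI Treg 2 were also the lowest of their groups for a dimmer probe set of Kat2b and of Kat6a, given below. The part of this array pattern in the Crebbp differences was not tested. The Treg minus Tconv difference was 0.20 in WT (adjusted p = 0.263) and -0.15 in KI (adjusted p = 0.386). Leaving out 1 array moved these to between 0.06 and 0.26 in WT and between -0.24 and -0.03 in KI.

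Kat2b, the PCAF subunit, had WT Tconv arrays at 10.14, 10.17, 10.08 and 10.19 and WT Treg arrays at 10.03, 10.07, 10.10 and 10.31. The KI Tconv arrays read 9.77, 9.89, 9.95 and 10.19, and the KI Treg arrays 9.93, 9.92, 10.02 and 10.10. Tregs and Tconv overlapped in both genotypes, with differences of -0.01 (95% interval -0.182 to 0.154) and 0.04. Kat2a, the GCN5 subunit, read 5.32 to 6.09 over the 16 arrays, close to the level below which genes were not tested. Its differences were -0.02 in WT and -0.08 in KI, and its highest array was KI Treg 2 at 6.09, apart from the 5.36 to 5.50 of the other KI Tregs.

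Treg and Tconv arrays of the MYST enzymes overlapped in both genotypes. Kat6a lay between 8.83 and 9.24 on the 16 arrays, with differences of 0.08 in WT (adjusted p = 0.475) and -0.07 in KI (adjusted p = 0.486). Kat7 lay between 7.70 and 8.21, and its Treg means were above its Tconv means in both genotypes, by 0.13 (adjusted p = 0.298) and 0.11 (adjusted p = 0.341), without passing.

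**Figure D2:**
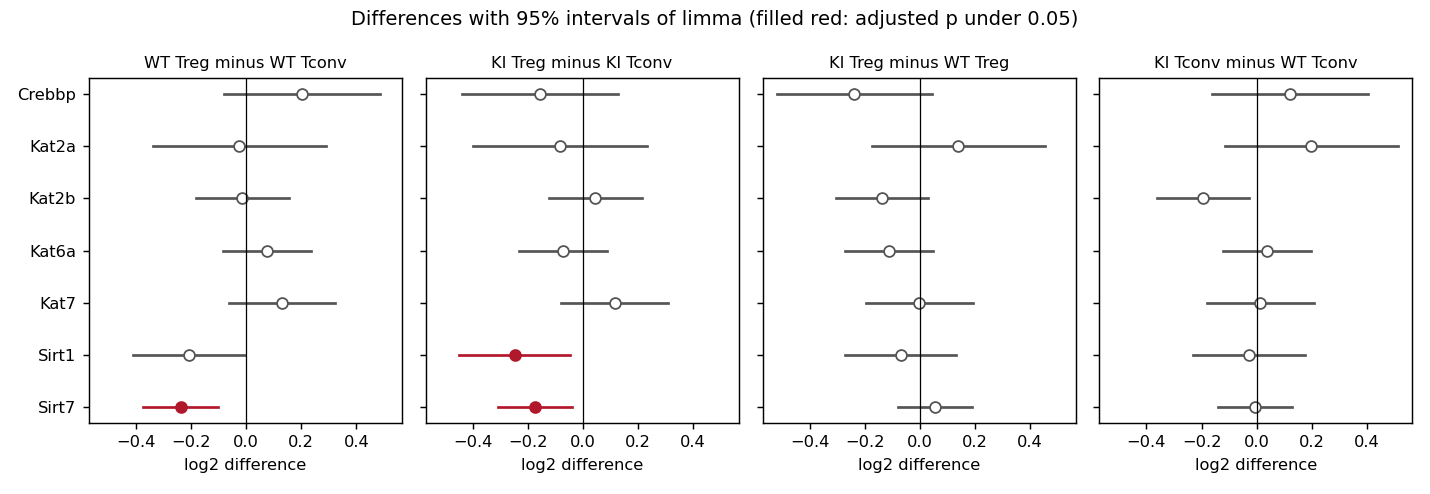
Log2 difference (horizontal axis) of the 7 tested genes (vertical axis) in 4 comparisons, 1 panel each, as points with 95% intervals from limma; filled red points passed at an adjusted p under 0.05. The red points are Sirt7 in both Treg minus Tconv panels (-0.24 and -0.17) and Sirt1 in that of KI (-0.25).

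The genotype comparisons ask whether levels of these enzymes differ between the knock-in line and the transgenic line called WT. The GFP fusion of Foxp3 and the EGFP/cre transgene cannot be told apart in them. In Tregs, 0 of 7 members passed between KI and WT in limma, and 0 had an unadjusted p under 0.05, where 2.84% of all genes passed and 16.5% had an unadjusted p under 0.05. The Crebbp difference was -0.24 (SE 0.1342, 95% interval -0.519 to 0.045), that of Kat2b -0.14 and that of Kat6a -0.11. Sirt1 differed by -0.07 and Sirt7 by 0.06, with 95% intervals of -0.273 to 0.132 and -0.079 to 0.19. In Tconv, 0 of 7 passed in limma and 1, Kat2b, had an unadjusted p under 0.05, where 0.135% of all genes passed and 5.90% had an unadjusted p under 0.05. The Kat2b difference was -0.20 (SE 0.0799, 95% interval -0.363 to -0.027, adjusted p = 0.733). Of its KI Tconv arrays 3 lay below all 4 WT Tconv arrays, and KI Tconv 4, at 10.19, lay at the top of them. The array numbered 24 to 27 read 10.19 in both Tconv groups. The other WT arrays are numbered 4 to 9 and the other KI arrays 13 to 23, so for these genotype and number series cannot be told apart. The gap between the KI minus WT differences of the cell types (Treg value less Tconv value) was tested as well. It passed for 0 of 7 members, 0 of them with an unadjusted p under 0.05, where 0.786% of all genes passed and 8.27% had an unadjusted p under 0.05. It was -0.04 for Sirt1 (adjusted p = 0.982) and 0.06 for Sirt7 (adjusted p = 0.947), so the fall of either gene in Tregs was not shown to differ between genotypes. For Crebbp it was -0.36 (SE 0.1898, adjusted p = 0.677).

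Of the 14 probe sets, 10 were bright enough to be tested one by one, among 18621 probe sets. Sirt7 passed in WT (adjusted p = 0.00965) and in KI (adjusted p = 0.0425), where 28.9% and 36.6% of all probe sets passed, and Sirt1 in KI missed the threshold (adjusted p = 0.0569). No other member probe set passed in any comparison, and the shares of all probe sets that passed were 1.51% for KI against WT Tregs, 0.0967% for KI against WT Tconv and 0.371% for the difference between these. The 4 dim probe sets were a second one of Kat2a (group means 3.62 to 3.81), a second one of Kat7 (3.91 to 4.15), another of Kat6a (3.05 to 3.33) and that of Kat6b.

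Probe sets of the same gene spread differently. For Kat2b, 1434037_PM_s_at is the one described above, and 1450821_PM_at read 6.78, 6.38, 6.85 and 6.84 in WT Tregs and 5.82, 4.84, 6.58 and 6.58 in KI Tregs. The latter gave a KI minus WT difference of -0.76 in Tregs (SE 0.3336, adjusted p = 0.281), against -0.14 for the former. KI Treg 1 and 2 were its low arrays, and the other pair lay within the WT range. Kat2b's 1457809_PM_at was lowest on the array numbered 24 to 27 in every group, at 5.39 in WT Tconv, 5.77 in WT Tregs, 5.50 in KI Tconv and 5.43 in KI Tregs. For Kat6a, 1436315_PM_at ran from 8.83 to 9.24 over all arrays, while 1437487_PM_at ran from 5.65 to 7.11. The lowest array of 1437487_PM_at in each group (WT Tconv 1, WT Treg 2, KI Tconv 4 and KI Treg 2) was also the lowest of 1450821_PM_at of Kat2b. Of all 18621 probe sets, 2.53% were lowest on those same 4 arrays, and 4.11% on the 4 arrays numbered 24 to 27. The difference between 3′ and 5′ probe sets of Actb was 0.45 to 0.66 over all arrays, and that of Gapdh 0.18 to 0.52. Their part in these patterns was not tested.

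**Figure D3:**
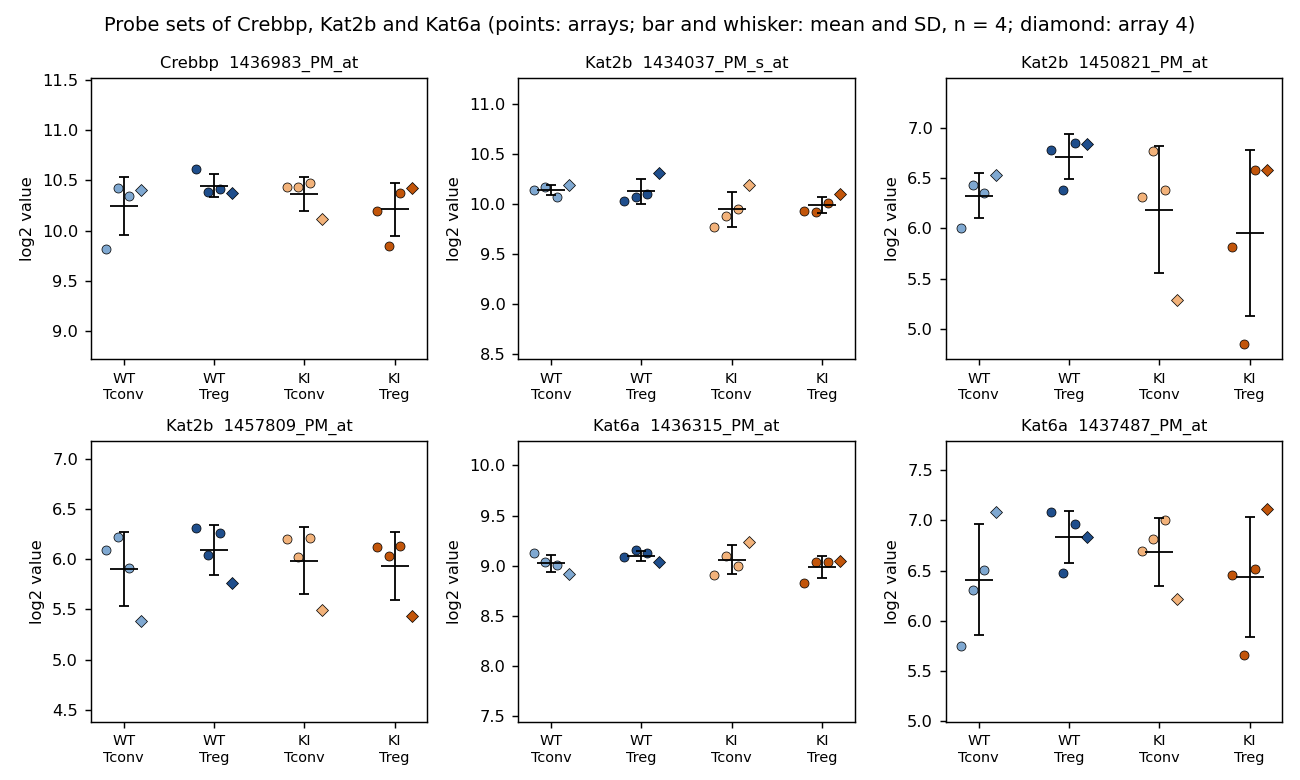
Log2 level (vertical axis) of the tested probe sets of Crebbp, Kat2b and Kat6a on each array of the 4 groups (horizontal axis), with means and SD (n = 4) as bars and whiskers and diamonds for the arrays numbered 24 to 27. The probe sets of Kat2b and Kat6a that lie between 4.84 and 7.11 spread more within groups than 1434037_PM_s_at and 1436315_PM_at of the same genes.

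The enzymes act in complexes and draw on acetyl-CoA and NAD, so 124 further genes in 9 lists were read the same way. Of these, 95 were tested, and the others had no probe set of their own or were too dim. In WT, 34 of the 95 passed (35.8%, against 34.6% of all genes), 10 higher and 24 lower in Tregs. Of all genes 16.7% were higher and 17.9% lower there. In KI, 36 passed (37.9%, against 41.1%), 11 higher and 25 lower, where 21.2% of all genes were higher and 19.9% lower. The KI counts include Hic1, which entered the test through KI Tregs alone. In both genotypes 24 genes passed, all 24 in the same direction, which is 70.6% of the WT calls and 66.7% of the KI calls of these lists. Over all genes tested, 2311 were called in both genotypes in the same direction, 82% of the WT calls and 69.1% of the KI calls. The median difference of all genes was -0.03 in WT and -0.02 in KI. Counts and medians of the lists below are read beside the shares and medians of all genes, and no set test was run.

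The widest differences of these lists were in the acetyl-CoA supply. Acss2, which makes acetyl-CoA from acetate in the cytosol and nucleus, fell from 8.28 ± 0.16 in WT Tconv to 6.81 ± 0.14 in WT Tregs, and from 8.24 ± 0.10 to 6.68 ± 0.09 in KI (SD, n = 4). These are differences of -1.47 (2.77-fold lower, adjusted p = 4.74e-10) and -1.56 (2.95-fold lower, adjusted p = 1.33e-10), and the highest Treg array, 7.01, lay below the lowest Tconv array, 8.07. Pdk1, a kinase that shuts down pyruvate dehydrogenase, fell by 1.27 in WT and by 1.18 in KI. Pdk3, of the same kinase family, rose by 0.495 in WT Tregs and by 0.79 in KI Tregs. Pdhb, a subunit of pyruvate dehydrogenase, fell by 0.30 in WT and by 0.25 in KI. Of the 10 tested genes of this list, 1 rose and 3 fell in WT (median -0.14), and 2 rose and 3 fell in KI (median -0.02). Shares of all genes were 16.7% higher and 17.9% lower in WT, and 21.2% and 19.9% in KI.

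Among the other acetyltransferases, 1 of 11 rose and 3 fell in WT, and 1 rose and 2 fell in KI. Over all genes 16.7% were higher and 17.9% lower in WT, and 21.2% and 19.9% in KI. Kat14, an acetyltransferase of the ATAC complex, fell from 7.24 ± 0.08 to 6.67 ± 0.095 in WT and from 7.22 ± 0.03 to 6.70 ± 0.13 in KI (adjusted p = 2.35e-05 and 4.55e-05). Ncoa3, a nuclear receptor coactivator that recruits p300 and CBP, rose from 9.36 ± 0.14 to 9.78 ± 0.16 in WT and from 9.44 ± 0.15 to 9.78 ± 0.10 in KI (adjusted p = 0.00147 and 0.00671). Kat8 (MOF), the MYST enzyme of the MSL and NSL complexes, fell by 0.24 in WT Tregs and by 0.27 in KI Tregs. Gtf3c4, a subunit of the RNA polymerase III factor TFIIIC, fell by 0.45 in WT, a call lost without WT Tconv 2 (-0.40) or WT Treg 2 (-0.34) and with the mean of its probe sets (-0.23), and its KI difference of -0.29 did not pass. Kat5 (TIP60) has no probe set of its own in the annotation used here. Of the other sirtuins, the mitochondrial Sirt3 and Sirt5 were tested and neither passed, with differences of -0.08 and -0.05 in WT and -0.19 and 0.07 in KI.

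SAGA and ATAC subunits, the partners of Kat2a and Kat2b, had 2 of 21 members higher and 7 lower in WT Tregs, and 2 higher and 6 lower in KI, with medians of -0.04 and -0.02. Of all genes 16.7% were higher and 17.9% lower in WT, and 21.2% and 19.9% in KI. Atxn7l3, part of the SAGA module that removes ubiquitin from histone H2B, fell by 0.41 in WT and by 0.40 in KI. Yeats2, the ATAC subunit that reads histone acylation, fell by 0.25 in WT and by 0.61 in KI, and Supt7l, a SAGA core subunit, by 0.33 and by 0.48. Tada2b, the SAGA adaptor of Kat2a, fell by 0.465 in WT and by 0.35 in KI. Wdr5, a scaffold shared by ATAC and histone methyltransferases, fell by 0.33 in WT, which the mean of its probe sets reduced to -0.155 without a call, and by 0.32 in KI.

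The subunits that partner Kat6a, Kat6b and Kat7 had 2 of 9 higher and 4 lower in WT Tregs (median -0.12) and 0 higher and 5 lower in KI (median -0.27). Shares of all genes were 16.7% higher and 17.9% lower in WT, and 21.2% and 19.9% in KI. Brd1 (BRPF2), a scaffold that ties Kat7 and Kat6 enzymes to chromatin, fell by 0.39 in WT and by 0.36 in KI. Ing5, which reads methylated histone H3, fell by 0.41 and by 0.33, and Jade3, a scaffold of Kat7, by 0.52 and by 0.42. Brpf1, the main scaffold of Kat6a and Kat6b, fell by 0.23 in WT and by 0.28 in KI. With the mean of all probe sets of a gene, the WT differences of Brd1 and Ing5 were -0.13 and -0.12 and did not pass.

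The NuA4, MSL and NSL subunits had 2 of 21 higher and 5 lower in WT Tregs (median -0.08), and 1 higher and 9 lower in KI (median -0.14). Beside them, 16.7% of all genes were higher and 17.9% lower in WT, and 21.2% and 19.9% in KI. Ing3 of NuA4 fell by 0.34 in WT and by 0.37 in KI, and Kansl3 of NSL fell by 0.24 in WT and by 0.295 in KI. Yeats4 fell by 0.34 in WT, and its KI difference of -0.14 did not pass. The ATPase Ruvbl1 rose by 0.25 in WT, and its KI difference of 0.13 did not pass. Msl1, the scaffold of MSL, fell by 0.25 in KI, and its WT difference of -0.078 did not pass. With the mean of all probe sets, Ing3 gave -0.14 and -0.20 and Msl1 0.02, none of which passed.

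**Figure D4:**
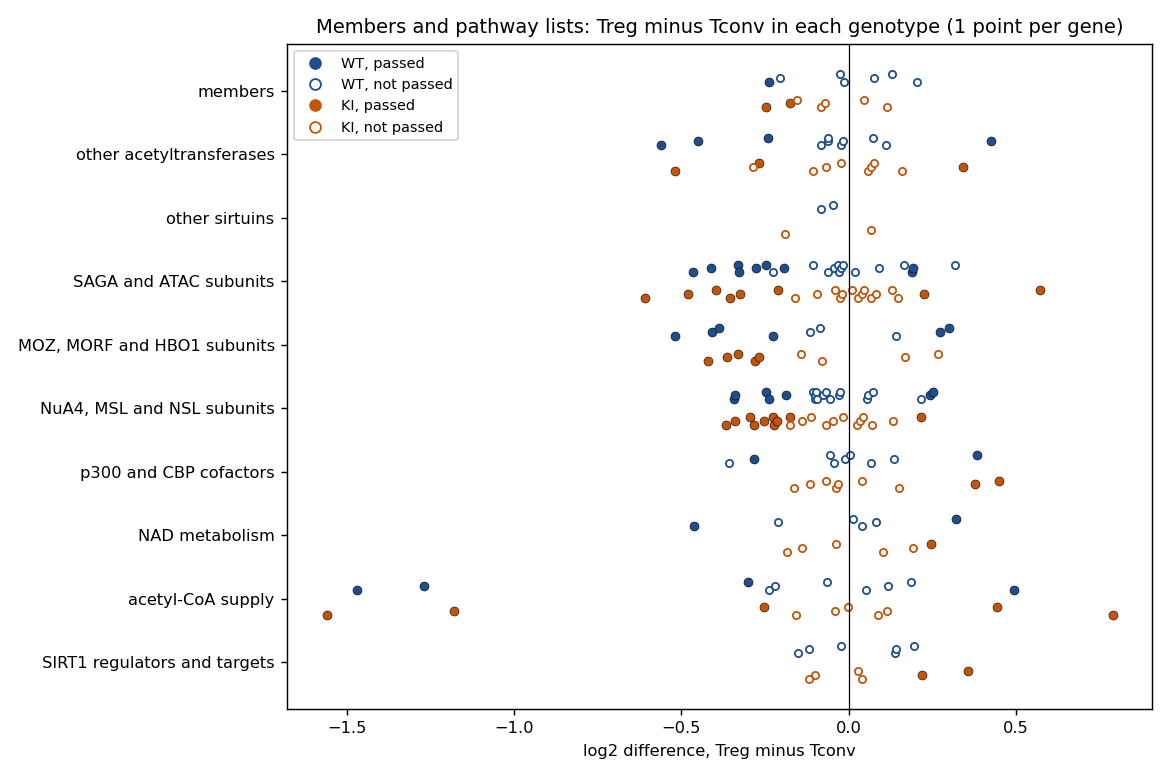
Log2 Treg minus Tconv difference (horizontal axis) of each tested member and of each tested gene of the 9 pathway lists (vertical axis), 1 point a gene, in blue for WT and orange for KI, filled where the gene passed. The lowest points are Acss2 (-1.47 in WT and -1.56 in KI) and Pdk1 (-1.27 and -1.18), both of the acetyl-CoA list.

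Of the 9 tested cofactors of p300 and CBP, 1 rose and 1 fell in WT Tregs, and 2 rose in KI. Beside them, 16.7% of all genes were higher and 17.9% lower in WT, and 21.2% and 19.9% in KI. Carm1, an arginine methyltransferase that modifies p300 and CBP, rose by 0.38 in WT and by 0.45 in KI, and Crtc3, a CREB coactivator, rose by 0.38 in KI, with a WT difference of 0.13 that did not pass. The WT call of Carm1 was lost without WT Tconv 1 (0.37), WT Tconv 4 (0.35) or WT Treg 2 (0.28). Cited2 binds the same domain of p300 and CBP as HIF-1. It was the 1 gene of the 95 that passed between KI and WT Tregs, where 2.84% of all genes passed. It rose from 8.63 ± 0.19 in WT Tregs (8.37 to 8.80) to 9.06 ± 0.20 in KI Tregs (8.87 to 9.26), with no overlap, a difference of 0.43 (SE 0.107, adjusted p = 0.0377). No overlap was seen in 8.12% of all genes there. The call was lost without WT Tconv 2 (0.43), WT Treg 1 (0.34), WT Treg 2 (0.42), WT Treg 3 (0.46), KI Treg 1 (0.38) or KI Treg 2 (0.36), and with the 3 series of label numbers as a block (0.31, adjusted p = 0.731). Cited2 also fell in WT Tregs against WT Tconv (-0.28, adjusted p = 0.0494), a call that 6 of 16 fits with an array left out kept and that shares the WT Treg arrays with the genotype comparison. It was lost without WT Tconv 1 (-0.26), 2 (-0.26) or 4 (-0.26), WT Treg 1 (-0.20), 2 (-0.28) or 3 (-0.31), KI Tconv 1, 2 or 3 or KI Treg 1 (all -0.28). No pathway gene passed between KI and WT Tconv or for the difference between cell types.

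In NAD metabolism 12 of 17 genes had a probe set of their own, and 6 were bright enough to be tested. Nampt, the main enzyme of NAD salvage, was not among those tested. Nadk, which makes NADP from NAD, rose by 0.32 in WT Tregs and by 0.25 in KI, the latter lost without KI Tconv 3 (0.22). Nmnat3, a mitochondrial enzyme of NAD synthesis, read 5.09 to 5.52 in WT Tconv and 4.59 to 4.87 in WT Tregs, all 4 of which lay below the level of 5 used as the filter, so no size is given for its fall in WT. That call was lost without WT Tconv 3 or WT Treg 3. Among 6 tested regulators and targets of Sirt1, 0 passed in WT, against 34.6% of all genes. In KI 2 passed, Rela and Hic1, against 41.1% of all genes. Hic1, a repressor of the Sirt1 promoter, was above 5 in KI Tregs alone (5.09 to 5.275) and entered the test through them, against 4.71 to 4.95 in KI Tconv, so its call is not read as a change. Rela, an NF-kB subunit that Sirt1 deacetylates, rose by 0.22 in KI Tregs (adjusted p = 0.025), with a WT difference of 0.14 that did not pass. Rela lost its call without KI Tconv 2 (0.20), KI Tconv 3 (0.21), KI Treg 1 (0.21) or KI Treg 2 (0.14).

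Genes whose level followed that of a sirtuin most closely were found by the root mean square (RMS) difference over the 16 arrays after each gene was centred on its own mean. For Sirt1, whose own RMS deviation from its mean was 0.172, they were Kbtbd7 (RMS difference 0.0635), Trappc8 (0.0842) and Smchd1 (0.086). For Sirt7, with an own RMS deviation of 0.1276, they were Hnrnph1 (0.053), Zcchc7 (0.0605) and Uvssa (0.0606). These values describe likeness on the same 16 arrays and carry no test.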

How the data were processed

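Total RNA of 16 sorted T cell samples was hybridised to Affymetrix 3′ IVT arrays of perfect match probes, 1 per sample. The deposited values are log2 expression per probe set, which the authors made with RMA in Partek 6.5, per the submitters' processing notes (RMA is known to compress differences of dim signals). The scan data were not used here. Probe sets with 1 listed gene (28898 of 45141) were named by the platform table, with symbols updated through Entrez IDs (28689), by symbol (152) or kept (57), which gave 17097 genes. Each gene was represented by its probe set with the highest mean over the 16 arrays, and genes above 5 on at least 4 arrays were tested (8139). Levels of different probe sets are not comparable.

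limma 3.58.1 in R 4.3.3 (lmFit, eBayes with trend) fitted the 4 groups on all 16 arrays together. Tests were two-sided, adjusted by Benjamini-Hochberg over all genes at 0.05, and the script was tested on simulated data. The genes named are the members, up to 3 genes per list and comparison with the lowest p among those that passed, Foxp3, and the 3 genes most like each member that passed in any comparison. Members, lists and tests were chosen with earlier results of these data known. Replicate numbers follow the order of the samples and pair nothing. Alternatives were other filters, probe set summaries, variance models, normalizations, sample subsets and label-number blocks, and each array left out. Motif shares are over RefSeq windows. The precision is limited by 4 arrays a group.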

Additional observations from a re-analysis of the deposited data

Results flagged for a closer look

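A total of 40 sets of 4 arrays of a member probe set were checked. In 8 of them an array had a gap to the nearest other that was wide for the range of its group. Chance gives about 1 in 20 for independent, normally spread values, but these sets share the same arrays. The share among all tested probe sets was not counted, so no excess in the members can be read from these 8. Crebbp gave 3 of them: 9.82 on WT Tconv 1 (others 10.34 to 10.42), 10.62 on WT Treg 1 (10.38 to 10.41) and 10.11 on KI Tconv 4 (10.44 to 10.48). Kat2b gave 6.38 for 1450821_PM_at on WT Treg 2 (6.78 to 6.85) and 5.43 for 1457809_PM_at on KI Treg 4 (6.03 to 6.14). Kat6a read 8.83 on KI Treg 1, where the other 3 arrays all read 9.04. Sirt1 read 9.64 on WT Treg 4 (9.25 to 9.31), and Sirt7 read 10.09 on KI Treg 2 (9.88 to 9.91). No cause was tested.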

How the results depend on the processing

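The fall of Sirt7 in WT Tregs kept its call under all 11 alternatives (-0.26 to -0.23, adjusted p from 0.000995 to 0.0133) and in all 16 fits with an array left out. The other member calls depended on the setting. The count of members that passed between KI Tregs and Tconv went from 2 to 0 with no filter on dim genes, with no variance trend and with only the 2 groups compared. Those settings called 21.4%, 40.7% and 34.1% of all genes there. Between WT Tregs and Tconv the count went from 1 to 2 with array weights and with 2 or 3 label-number series as a block. Sirt1 was added in each, and these settings called 41.9%, 38.2% and 38.4% of all genes. With array weights 1 member, Kat6a, passed between KI and WT Tregs (-0.21, adjusted p = 0.0326), where array weights called 21.1% of all genes. With 1 array left out the counts of members ran from 1 to 2 in WT, from 0 to 2 in KI and from 0 to 0 in the other comparisons. Those fits called 30% to 36.6% of all genes in WT, 35.5% to 41.1% in KI and at most 7.02% in the other comparisons. Across the 11 alternatives the adjusted p of Sirt1 in KI ran from 0.015 to 0.0699 and that of Sirt7 in KI from 0.00197 to 0.0632. In KI, array weights called Crebbp (-0.24, adjusted p = 0.0347), Kat7 (0.22, adjusted p = 0.0302) and Sirt7, where 55.9% of all genes passed, and Sirt1 lost its call (-0.17, adjusted p = 0.0564). Cited2 lost its KI minus WT call in Tregs under 5 of 11 alternatives, among them the random block of label numbers (0.41, adjusted p = 0.0975).

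A sign turned in 15 cases under an alternative and in 35 with an array left out, Msl1 in KI being the 1 called value among them, and the cause was not tested. The arrays numbered 24 to 27 taken alone are outside these counts. Signs turned there as well, among them Sirt1 in WT (0.07) and Crebbp in WT (-0.03) and KI (0.31) between Tregs and Tconv. With the mean of all probe sets, Kat2b was 0.19 in WT and -0.080 in KI between Tregs and Tconv, and Msl1 0.022 in KI. Kat7 was 0.099 between KI and WT Tregs, and the difference between cell types was -0.27 for Kat2b and 0.026 for Kat7. With array weights, Kat7 was 0.084 between KI and WT Tregs and -0.0069 between KI and WT Tconv, with a difference between cell types of 0.091, and that of Sirt1 was 0.064. Quantile normalization gave Kat2b 0.0018 in WT. With 3 series of label numbers as a block, KI minus WT in Tregs was 0.088 for Kat6a, 0.0073 for Kat7 and -0.0078 for Sirt7, and Sirt1 was 0.026 in Tconv.

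Leaving out 1 array gave these ranges where a sign turned. For KI minus WT in Tconv, Crebbp ran from -0.022 to 0.20, Sirt7 from -0.036 to 0.018, Kat7 from -0.062 to 0.065, Sirt1 from -0.076 to 0.019 and Kat6a from -0.024 to 0.088. For the gap between cell types, Sirt1 ran from -0.11 to 0.045, Kat7 from -0.067 to 0.060, Kat2b from -6e-04 to 0.14 and Kat2a from -0.23 to 0.018. For WT Tregs minus Tconv, Kat2a ran from -0.079 to 0.040 and Kat2b from -0.074 to 0.018. For KI minus WT in Tregs, Kat7 ran from -0.039 to 0.046, Sirt1 from -0.14 to 0.017 and Kat2a from -0.027 to 0.22. For KI Tregs minus Tconv, Kat2b ran from -0.015 to 0.12.

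The precision of each member value is limited by 4 arrays a group.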
